A study of Mus musculus with 2 samples.

Results

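Transcripts of 10 imprinted genes that lie outside the insulin-like growth factor axis were compared between Id1 knockout and wild-type mouse embryonic stem (ES) cells. The genes were Phlda2, Cdkn1c, H19, Plagl1, Peg3, Snrpn, Gnas, Nnat, Impact and Sgce, and a probe set counted as theirs when the array annotation assigned it to that symbol and to no other. By this rule 9 of the 10 genes were represented, by 15 of the 20380 probe sets that carried a single symbol, among 12393 genes in all. H19 had no probe set of its own. The data are 1 microarray of Id1-/- ES cells and 1 of wild-type ES cells, hybridised with biotin-labelled copies of total RNA. Both cultures were in the self-renewing state, on gelatin with serum and leukaemia inhibitory factor (LIF), and no other allele or agent is named for either. The labels name no clone, passage, strain or sex for either culture. With a single array for each genotype there is no replicate spread, no test and no p-value, so a fold is given as a description of these arrays and is counted when it reaches 2-fold.

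Imprinted genes are transcribed from the allele of 1 parent, because DNA methylation laid down at control regions in the egg or the sperm is kept on that parent's chromosome after fertilisation. Several of their products act on growth of the embryo and placenta, and those transcribed from the maternal allele often restrain growth. In cultured ES cells methylation at imprinted regions is known to be unstable. The probe sets read the summed RNA of both alleles, so the grouping by parental allele used here rests on the known biology of each gene and not on these arrays. Phlda2, Cdkn1c and H19 are known to be transcribed from the maternal allele. Plagl1, Peg3, Snrpn, Nnat, Impact and Sgce are known to be transcribed from the paternal allele. Gnas makes maternal, paternal and biallelic transcripts from different promoters.

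Methylation at imprinted loci falls on CG dinucleotides, and the promoters below are shown because among the 10 genes theirs were the highest increase (Phlda2), the largest decrease (Plagl1) and the increase past 2-fold on the paternal side (Nnat), and to show the start site that Snrpn shares with Snurf. Each is the 250 bases before a start site in RefSeq's table of mouse assembly GRCm38.p6, 5′ to 3′ on the gene's strand, with every CG in capitals.
Phlda2, chr7:143502525-143502774, minus strand: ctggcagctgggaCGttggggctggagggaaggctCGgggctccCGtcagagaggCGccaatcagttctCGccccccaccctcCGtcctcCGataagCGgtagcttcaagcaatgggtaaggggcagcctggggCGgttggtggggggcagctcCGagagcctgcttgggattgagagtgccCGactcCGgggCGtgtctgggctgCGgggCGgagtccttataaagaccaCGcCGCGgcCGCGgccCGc
Plagl1, chr10:13090582-13090831, plus strand: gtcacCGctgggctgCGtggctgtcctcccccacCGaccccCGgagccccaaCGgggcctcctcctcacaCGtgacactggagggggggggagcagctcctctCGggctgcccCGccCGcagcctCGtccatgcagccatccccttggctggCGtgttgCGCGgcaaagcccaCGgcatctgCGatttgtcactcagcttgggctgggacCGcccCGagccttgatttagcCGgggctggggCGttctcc
Nnat, chr2:157559828-157560077, plus strand: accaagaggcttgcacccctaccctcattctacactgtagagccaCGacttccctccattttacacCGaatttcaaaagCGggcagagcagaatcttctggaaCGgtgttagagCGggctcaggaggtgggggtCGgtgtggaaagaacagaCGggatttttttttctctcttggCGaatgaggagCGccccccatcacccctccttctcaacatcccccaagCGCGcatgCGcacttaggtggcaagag
Snrpn, chr7:60005200-60005449, minus strand: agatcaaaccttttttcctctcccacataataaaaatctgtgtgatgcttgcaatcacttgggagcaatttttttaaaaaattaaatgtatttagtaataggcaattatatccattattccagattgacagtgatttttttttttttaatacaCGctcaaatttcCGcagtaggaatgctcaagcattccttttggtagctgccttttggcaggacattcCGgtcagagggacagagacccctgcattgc
The table held 12 start sites for 6 of the 10 genes. The Phlda2 window held 21 CG, the Plagl1 window 19, the Nnat window 12 and the printed Snrpn window 3, against a median of 6 over all 32851 windows of this length. The other Snrpn windows held 4, 3 and 2 CG. As many CG or more were found in 16.3% of all windows for Phlda2, 19.7% for Plagl1, 33.5% for Nnat and 71.0% for Snrpn. The hexamer TGCCGC, which the imprint-keeping zinc finger protein ZFP57 is known to bind when methylated, was searched on both strands. It occurred once in the Plagl1 window, as its reverse complement GCGGCA, and in none of the other 11 windows of these 6 genes, against 8.68% of all windows. The arrays hold no methylation values, so these letters are a description only.

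After centring each array on its median, a floor was set at the 25th percentile (intensity 48.4 for knockout, 47.6 for wild type), and a gene was compared when its brighter value reached its array's median (155.0 and 152.5). Probe sets that read the same gene disagreed by a median standard deviation (SD) of 0.22 in their log2 differences, over 2567 genes with more than 1 passing probe set. Id1 itself read 461 in knockout and 1045 in wild-type cells, or 2.30-fold lower. Clear Id1 signal, above the array median, thus remained on the array labelled Id1 knockout. Which part of the gene was removed is not stated, and the probe set therefore bears out the label only in part. Each of 16 ES cell markers was above the median of both arrays, and 5 of them were at least 2-fold lower in the knockout: Klf4, Tfcp2l1, Esrrb, Fgf4 and Nanog. None of the 16 was at least 2-fold higher. Of all genes compared, 3.92% were at least 2-fold higher and 3.92% lower. The X-linked genes read lower as a group, with 197 of 238 below 0 (median log2 difference -0.55), and the Y-linked gene Eif2s3y read 633 in knockout and 2.04 in wild-type cells. None of the imprinted genes described here is on a sex chromosome. The part of this difference in the results that follow was not tested, and genotype, culture and chromosome content cannot be told apart with 1 array each.

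The maternally expressed genes with a probe set of their own were both several-fold brighter in the knockout. Phlda2, which encodes a small pleckstrin homology domain protein that limits placental growth, read 3265 in knockout and 654 in wild-type cells. That is a 4.91-fold higher signal (log2 difference 2.30), and 28 of the 7369 genes past the filter had a larger increase. Cdkn1c, which encodes the cyclin-dependent kinase inhibitor p57, read 926 in knockout and 215 in wild-type cells, or 4.23-fold higher (log2 difference 2.08). For Cdkn1c, 39 genes had a larger increase. Each was above the array median on both arrays, so neither fold depends on a value at the floor. Each was also read by a single probe set, so no second measurement of the same transcript stands beside it.

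H19, a non-coding RNA that is also the precursor of the microRNA miR-675, could be read only through a probe set that the annotation assigns to H19 and Mir675 together (1448194_a_at). That probe set read 532 in knockout and 793 in wild-type cells, a log2 difference of -0.60. Its direction was thus opposite to that of Phlda2 and Cdkn1c, and its size stayed under 2-fold. Igf2, the paternally expressed neighbour that is known to share enhancers with H19, read 291 in knockout and 59.3 in wild-type cells, or 4.82-fold higher. The wild-type value of Igf2 lay close to the floor, and its other probe set (1415931_at) was below the floor on both arrays, at 4.78 and 39.2.

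**Figure D1:**
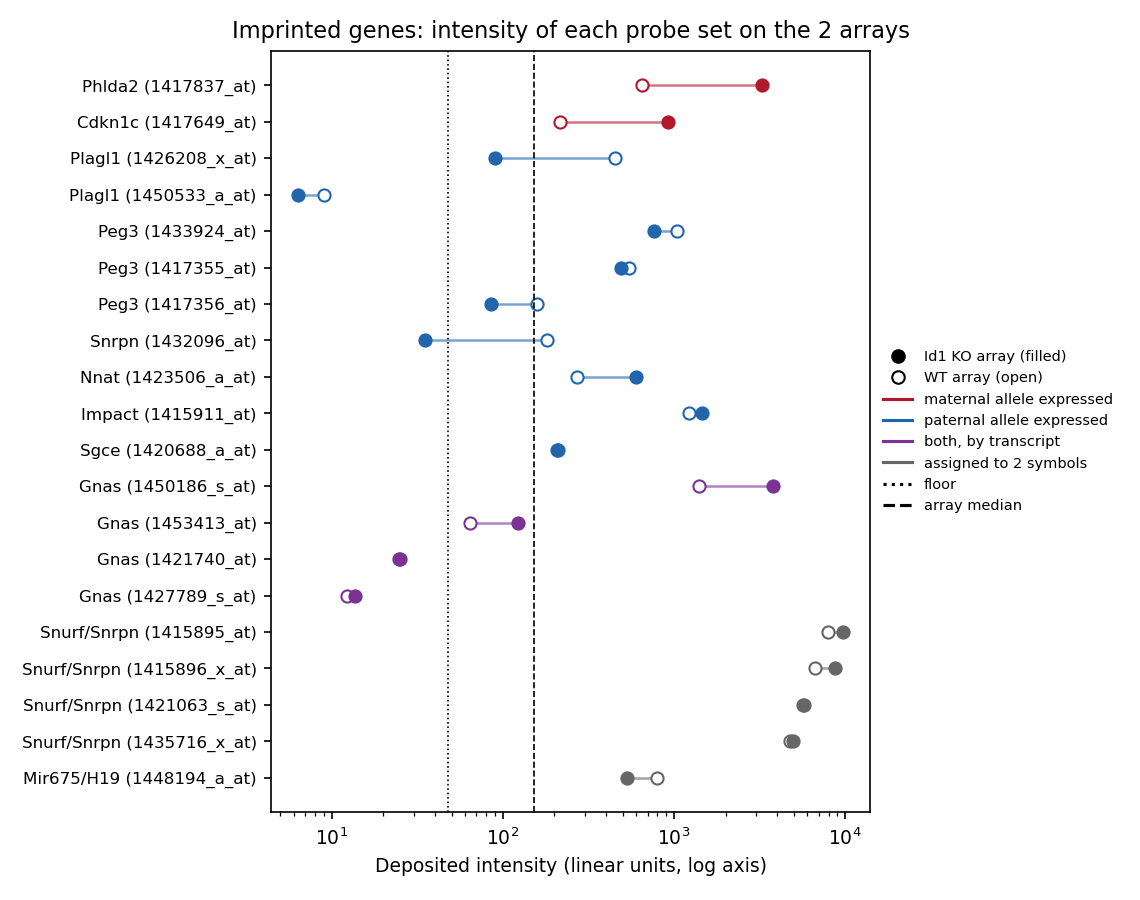
Deposited intensity (linear units on a log axis) of the 15 probe sets of the imprinted genes and of the 5 probe sets that carry Snrpn or H19 together with another symbol. Filled points are the Id1 knockout array and open points the wild-type array, the dotted line is the floor and the dashed line the median of the wild-type array, and colours give the expressed parental allele; the filled points of Phlda2 (3265) and Cdkn1c (926) lie far to the right of the open ones, and that of Plagl1 (89.4) far to the left.

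The paternally expressed genes did not share a direction. Of the 6, Nnat was at least 2-fold higher, Plagl1 and Snrpn were at least 2-fold lower by their own probe sets, and Peg3, Impact and Sgce were neither. Their median log2 difference was -0.25, with a range from -2.35 to 1.13, against a median of -0.01 over all 7369 genes.

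Plagl1 encodes a zinc finger transcription factor that can arrest the cell cycle. Its brighter probe set (1426208_x_at) read 89.4 in knockout and 449 in wild-type cells, or 5.10-fold lower (log2 difference -2.35), and 14 genes had a larger decrease. The knockout value lay below its array's median, so Plagl1 passed the filter through the wild-type array only. The suffix of that probe set marks probes that can also bind other transcripts. The other Plagl1 probe set (1450533_a_at) was far under the floor on both arrays, at 6.37 and 9.04, and adds no measurement of the change.

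Snrpn encodes SmN, a core protein of the spliceosome, and shares its main transcript with the short reading frame Snurf. The probe set assigned to Snrpn alone (1432096_at) read 35.2 in knockout cells, under the floor of 48.4, and 182 in wild-type cells. This gives a bound of at least 3.82-fold lower, and the gene passed the filter through the wild-type array only. The 4 probe sets assigned to Snurf and Snrpn together were bright on both arrays and did not share that decrease. They read 9694 against 7987 (1415895_at), 8678 against 6712 (1415896_x_at), 5775 against 5684 (1421063_s_at) and 4970 against 4753 (1435716_x_at) (knockout against wild type). Their log2 differences were 0.26, 0.35, -0.0008 and 0.04. The value of the single-symbol probe set is therefore not that of the bright Snurf-Snrpn signal, and which transcript that probe set reads was not tested.

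Nnat, which encodes neuronatin, a small membrane protein of the endoplasmic reticulum, read 599 in knockout and 269 in wild-type cells. It was 2.19-fold higher (log2 difference 1.13), close to the 2-fold line, and 215 genes had a larger increase. Its single probe set (1423506_a_at) was above the median on both arrays.

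Peg3, a zinc finger gene with a role in growth and maternal behaviour, was lower in the knockout by each of its 3 probe sets and past 2-fold by none. The brightest (1433924_at) read 768 in knockout and 1034 in wild-type cells, the next (1417355_at) 493 and 543, and the dimmest (1417356_at) 85.2 and 158. Their log2 differences were -0.45, -0.16 and -0.92, so the spread between probe sets was wider than the difference of the brightest. Impact, whose product restrains the amino acid-sensing kinase GCN2, read 1457 in knockout and 1221 in wild-type cells (log2 difference 0.23). Sgce, which encodes epsilon-sarcoglycan, read 207 and 210 (log2 difference -0.04). The differences of Impact and Sgce were about as large as, or smaller than, the 0.22 by which probe sets of 1 gene typically disagreed.

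Gnas encodes the alpha subunit of the stimulatory G protein, which couples receptors to adenylyl cyclase, and other proteins from its further promoters. Its brightest probe set (1450186_s_at) read 3772 in knockout and 1395 in wild-type cells, or 2.66-fold higher (log2 difference 1.41), and 140 genes had a larger increase. A dimmer probe set (1453413_at) read 123 and 63.8, a log2 difference of 0.92 in the same direction, but did not reach the filter. The other 2 Gnas probe sets were under the floor on both arrays, at 24.74 and 24.97 (1421740_at) and at 13.6 and 12.3 (1427789_s_at). The signal that was higher in the knockout thus came from 1 bright probe set and, below the filter, from 1 dim one. The antisense gene of the locus, Gnasas1, read 86.0 in knockout and 13.8 in wild-type cells and was below the filter on both arrays. The annotation used here does not say which Gnas promoter each probe set belongs to.

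Over all the genes with a probe set, 6 of 9 were past 2-fold, with 4 higher and 2 lower, where of all 7369 genes 3.92% reached 2-fold upwards, 3.92% downwards and 7.84% either way. The genes were chosen by imprinting and with their log2 differences between these arrays known, so nothing is read from their share. Of the 15 probe sets, 11 passed the filter and 6 of these were past 2-fold, beside 8.11% of all 12177 probe sets past it (4.18% higher and 3.93% lower). The median of the 9 genes was 0.23, the value of Impact. How often a gene passed 2-fold differed with its brightness, as a split of all genes into 4 classes of mean brightness shows. In the dimmest class, which held Plagl1, Snrpn and Sgce, 15.6% were past 2-fold, and in the next, which held Cdkn1c and Nnat, 7.71% were. In the class of Peg3 the share was 5.16%, and in the brightest, which held Phlda2, Gnas and Impact, it was 2.93%.

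**Figure D2:**
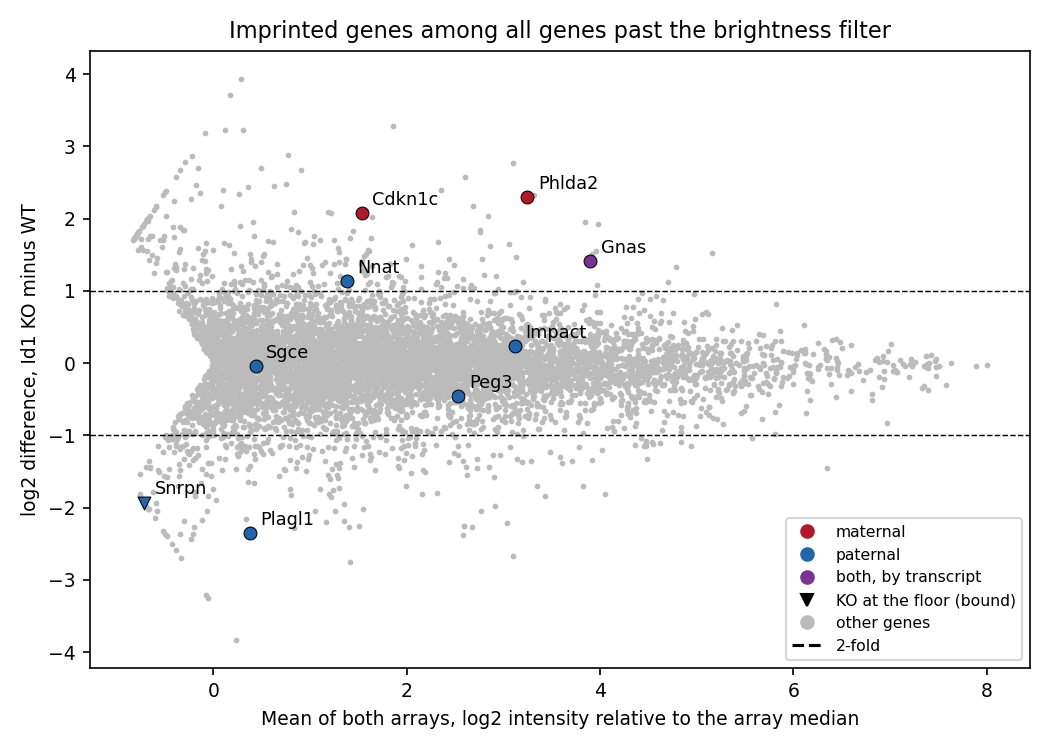
Log2 difference (knockout minus wild type) against the mean log2 intensity of both arrays relative to the array median, for the 7369 genes past the filter (grey) and the 9 imprinted genes (coloured by expressed allele; the triangle is a bound). Dashed lines mark 2-fold; the grey cloud is widest on the left, where Plagl1 and Snrpn lie, and narrow on the right, where Phlda2 (2.30) and Gnas (1.41) stand above it.

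The position of the genes in their imprinted domains was set beside these values. Phlda2 and Cdkn1c belong to the domain on chromosome 7 that is silenced on the paternal chromosome by the non-coding RNA Kcnq1ot1. Slc22a18, an organic cation transporter gene, lies between them and is also maternally expressed. It read 49.5 in knockout and 134 in wild-type cells (log2 difference -1.46), below the filter and with the knockout value close to the floor. Its other probe set (1417809_at) read 24.4 and 63.1, also below the filter and with the knockout value under the floor. Of the domain's other listed genes that passed, Ascl2, a trophoblast transcription factor gene, had a log2 difference of -0.87, Cd81 of -0.48, Tssc4 of -0.23, Nap1l4 of -0.03 and Dhcr7 of 0.86. None of these 5 reached 2-fold, and the nearest genes past the filter on either side of the Cdkn1c and Phlda2 pair were Tssc4 and Nap1l4. Kcnq1, Tspan32, Osbpl5 and Tnfrsf23 were at the floor on both arrays.

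In the Snrpn domain on chromosome 7, which is altered in Prader-Willi and Angelman syndromes, no other gene past the filter reached 2-fold. Ube3a, the ubiquitin ligase gene of the Angelman syndrome, had a log2 difference of -0.26, Ndn of -0.35 and Magel2 of 0.58. The 5 passing probe sets of Ndn ranged from -0.88 to 0.81, so its direction depends on the probe set. Mkrn3 (57.4 in knockout and 90.9 in wild-type cells) was below the filter, and Atp10a and Peg12 were at the floor. In the Peg3 domain Zim3 had a log2 difference of -0.55, and Zim1 and Usp29 were at the floor. Blcap, in whose intron Nnat lies, had 0.41. In the Sgce domain no other listed gene passed the filter, among them Peg10 with 58.8 in knockout and 49.0 in wild-type cells, Calcr, Pon2 and Pon3, and Tfpi2 and Asb4 were at the floor. Phactr2 beside Plagl1 (75.4 and 108) and Ins2 beside Igf2 (32.0 and 55.2) were below the filter as well.

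The nearest 3 genes past the filter on each side of every imprinted gene were also read. Leaving out the 10 genes themselves, these were 53 genes, of which 2 reached 2-fold upwards and 1 downwards, with a median log2 difference of -0.16. The higher ones were Igf2 and, as a bound of at least 3.80-fold, the deubiquitinase gene Otud7a beyond Magel2. The lower one was the peroxisome gene Pex3 (2.57-fold), which lies near Plagl1 with 216 in knockout and 545 in wild-type cells. Of the 43 flanking genes that are on no imprinted list, the other 41 stayed under 2-fold. Of all 7369 genes past the filter, 3.92% reached 2-fold upwards, 3.92% downwards and 7.84% either way. Nothing is read from the counts of flanking genes. Around Gnas, Npepl1 (-0.72), Rab22a, Vapb, Nelfcd, Atp5e and the cathepsin gene Ctsz (0.92) spanned both directions. Around Plagl1, Epm2a (0.65), Utrn, Sf3b5, Ltv1 and Adat2 (-0.34) did so too. Around Peg3, Zfp444 (0.32), Zscan5b, Zfp787, Aurkc and Zfp954 (-0.94) were measured besides Zim3. Around Nnat, Src (0.21), Manbal, Rprd1b, Tti1 (0.23) and Ctnnbl1 (-0.23) lay near 0, as did Tubgcp5 (0.04) and Nipa2 (0.08) before Snrpn. Around Impact, Ss18 (0.05), Rmc1, Osbpl1a, Ttc39c, Kctd1 and Psma8 (-0.94) ranged between the values given. Around Sgce, Casd1 (0.60), Col1a2, Bet1, Sem1, Slc25a13 and Asns (-0.77) differed in both directions. On distal chromosome 7, Mrpl23 (0.19), Ctsd and Krtap5-1 before H19, R74862 before Cd81, and Cars (-0.36) and Tnfrsf22 after Nap1l4 all lay between -0.36 and 0.19.

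**Figure D3:**
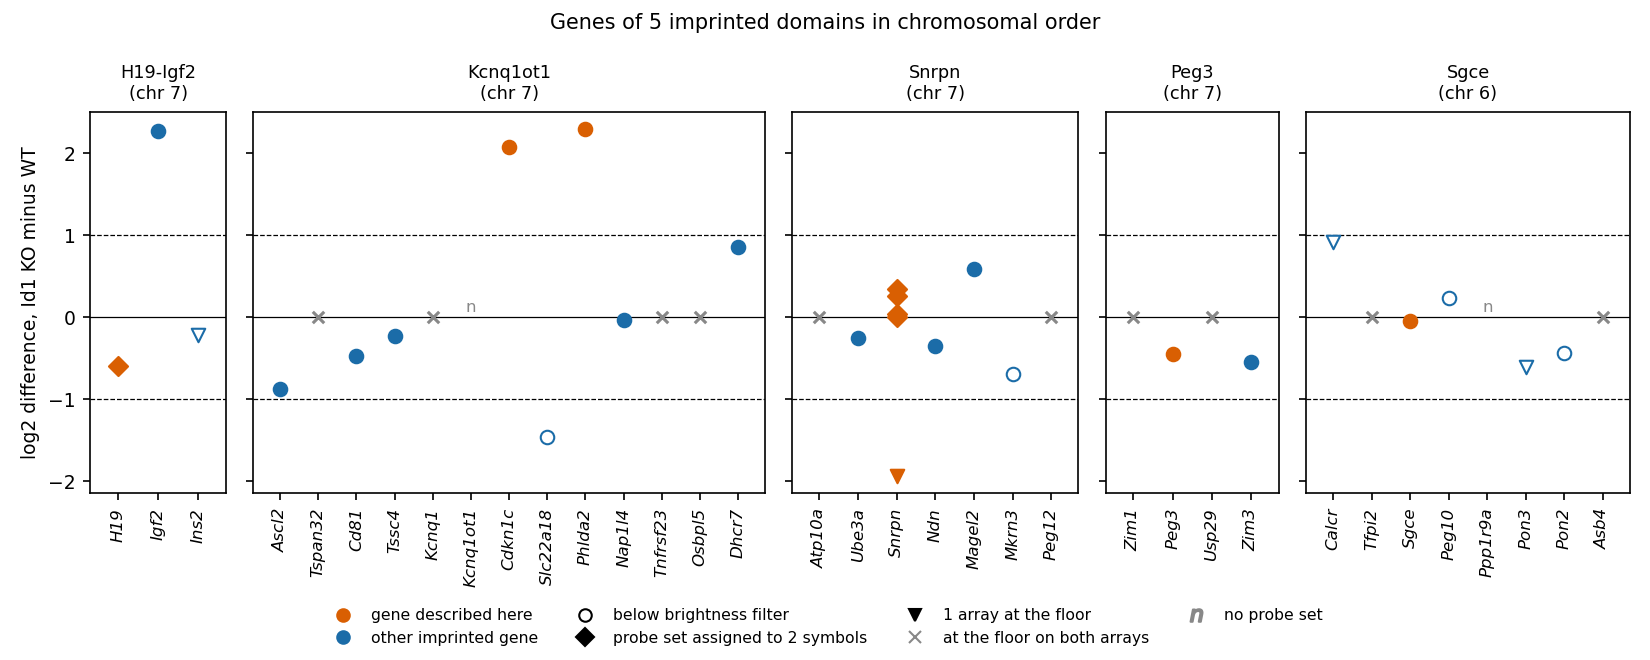
Log2 difference (knockout minus wild type) of the listed genes of 5 imprinted domains, in the order of the genes along chromosomes 7 and 6 (not to scale). Orange marks genes described here, blue other imprinted genes, open symbols genes below the brightness filter, diamonds probe sets assigned to 2 symbols, triangles bounds, crosses genes at the floor on both arrays and n genes without a probe set; Cdkn1c (2.08) and Phlda2 (2.30) stand well above the genes around them, and the Snrpn diamonds lie near 0 while its triangle lies at -1.93.

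Imprinted genes outside this set were taken from a list of 64, of which 49 had a probe set and 25 passed the filter. Of these 25, 3 were at least 2-fold higher (12%), 22 were neither and none was at least 2-fold lower, with a median log2 difference of 0.12. The 3 were Grb10, a maternally expressed adaptor of insulin receptor signalling (3475 in knockout and 503 in wild-type cells), Igf2 and H13, which encodes a signal peptide peptidase (353 and 152). Igf2 and H13 passed the filter through the knockout array only. Without the filter 4 genes of this list were counted, 3 higher and 1 lower. H13 lies near Id1 on chromosome 2 and was higher by 2.28-fold by the only 1 of its 5 probe sets that passed (1417287_at). A dimmer one (1428856_at) read 61.5 in knockout and 40.4 in wild-type cells, and the others were at the floor on both arrays. Mcts2, the paternally expressed gene within H13, had a log2 difference of -0.81. Its probe set may also read the parent gene Mcts1, of which Mcts2 is a retrocopy. The non-coding RNA gene Rian was higher by each of its 3 probe sets, from 0.66 to 1.06, and the growth regulator Dlk1 of the same domain had 0.97, short of 2-fold. Of 5 Meg3 probe sets in that domain 3 passed, and these ranged from -0.18 to 0.55, the last being the brightest. Of the genes on this list, 2 of 14 listed as maternally expressed and 1 of 11 listed as paternally expressed were at least 2-fold higher. None was at least 2-fold lower, beside 3.92% of all genes in each direction. The medians were 0.21 and 0.04. The difference between these medians was not tested. Whether each listed gene is expressed from 1 allele in these ES cells was not measured.

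Genes known to set, keep or erase methylation at imprints were listed apart. All 18 that had a probe set passed the filter. Of these, 1 was at least 2-fold higher, 1 at least 2-fold lower and 16 were neither, with a median of -0.03. Of all genes past the filter, 3.92% were at least 2-fold higher and 3.92% lower, and nothing is read from the count of regulators. Zfp57, whose product holds methylation at imprinted control regions, read 258 in knockout and 689 in wild-type cells, or 2.71-fold lower by its single probe set (log2 difference -1.44). Its partner Trim28 had a log2 difference of -0.26, and Zfp445, a zinc finger gene with a related role, 0.12. Dnmt3a, a de novo DNA methyltransferase gene, read 1969 in knockout and 548 in wild-type cells (3.54-fold higher), and its 4 passing probe sets ranged from 0.10 to 2.01. Dnmt3b had 0.71 by its brightest probe set and 1.80 by the other, and Dnmt3l, which encodes their cofactor, had -0.82. The maintenance methyltransferase gene Dnmt1 (0.04) and its partner Uhrf1 (-0.12) differed little. Tet1, which encodes an enzyme that oxidises methylated cytosine, had -0.67, Ctcf, whose product keeps the enhancers shared with H19 from acting on Igf2, 0.38, and Dppa3, a protector of imprints in the early embryo, 0.10. Whether these differences bear on the imprinted genes was not tested.

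**Figure D4:**
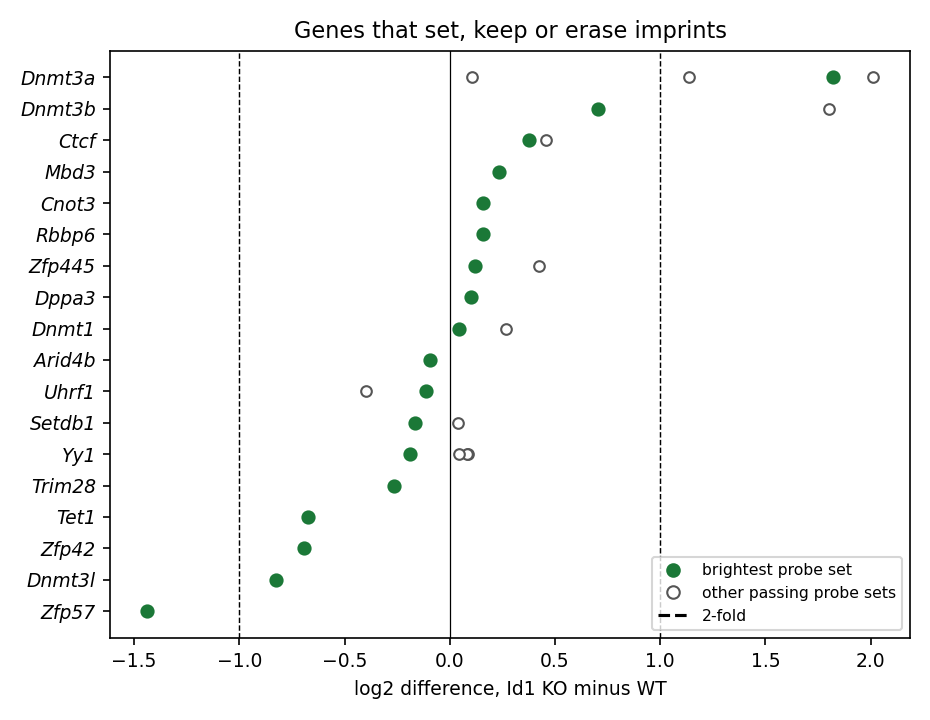
Log2 difference (knockout minus wild type) of the 18 genes that set, keep or erase imprints, with green points for the brightest probe set and open points for the other passing probe sets of the same gene. Dashed lines mark 2-fold; Zfp57 (-1.44) and the brightest Dnmt3a probe set (1.82) are the green points beyond them.

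Several of these genes are known from placenta and brain, so markers of other cell types were read beside them. Of 17 trophoblast markers with a probe set, 6 passed the filter, of which 2 were at least 2-fold higher (Krt8 and Krt18) and 2 at least 2-fold lower (Rhox6 and Rhox9). The summed intensity of all 17, passing or not, was 5686 in knockout and 3238 in wild-type cells. Krt8 (2124 and 464) and Krt18 (1985 and 542) made up most of the knockout sum. Without Krt8 and Krt18 the trophoblast sum was lower in the knockout. The sums below are likewise over every listed marker with a probe set. The trophoblast regulator genes Tfap2c (381 in knockout and 567 in wild-type cells) and Hand1 (213 and 189) passed and stayed under 2-fold. Cdx2, Elf5, Eomes and Gata3 stayed under the filter on each array, and Gata3 and Tpbpa were at the floor on both. Of 11 neural markers 5 passed and 4 were higher (Sox11, Zic5, Crabp2 and Nes), with sums of 2965 and 1544. The other that passed, Tubb3, had a log2 difference of -0.27. Sox1 and Pax6 did not reach the filter. Of 18 primitive endoderm markers 6 passed, with 1 higher (the laminin gene Lamb1, 2.55-fold) and 1 lower (the apolipoprotein gene Apoe, 2.14-fold). Gata4, Gata6 and Sox17 did not pass. The endoderm sums were 7277 in knockout and 9261 in wild-type cells. Apoe alone read 2468 and 5192, and without it the endoderm sum was higher in the knockout. Of 15 fibroblast markers 8 passed and 3 were higher. These were the actin-binding protein gene Tagln (1755 in knockout and 177 in wild-type cells), the thrombospondin gene Thbs1 (2.67-fold) and Fstl1 (2.71-fold). The fibroblast sums were 9336 in knockout and 8039 in wild-type cells, and without Tagln the sum was lower in the knockout. The fibroblast markers Fn1, Vim, Acta2, Col1a2 and Thy1 passed and stayed under 2-fold, while Col1a1, Col3a1 and Postn did not pass. Of the markers past 2-fold in these lists, Sox11, Crabp2 and Thbs1 passed the filter through the knockout array only, and Rhox6 through the wild-type array only. Beside these counts, 3.92% of all genes past the filter were at least 2-fold higher and 3.92% lower. The part of these markers in the differences of the imprinted genes was not tested, and in RNA from a whole culture more cells with a transcript and more RNA per cell cannot be told apart.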

How the data were processed

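The authors deposited 1 table of linear intensities, 1 value per probe set and array, for 2 arrays (1 per genotype), Affymetrix mouse arrays by their probe set names. Per the labels' protocols, RNA was purified on RNeasy columns and labelled with biotin by in vitro transcription. Their scaling was not given in the sources used here, nor the software. The number of arrays limits the precision. Of 22690 probe sets, 64 controls were left out. A platform annotation of 2016 gave 20380 probe sets 1 symbol, 691 several and 1555 none. Gene identifiers of 12369 of 12393 genes matched RefSeq's GRCm38.p6 gene table, used for gene order.

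After a log2 transform of the deposited intensities, arrays were centred on their medians (a shift of 0.02). The floor was the 25th percentile, and the filter was the array median for the brighter value. A gene was given by its brightest probe set on average. Differences are knockout minus wild type, counted at 2-fold. The counting was tested on simulated data, with changes well past 2-fold set in genes above the wild-type median. That test does not cover calls near the 2-fold line or near the floor. Python 3.11.15, numpy 2.4.6, pandas 2.3.3 and statsmodels 0.14.6 were used.

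The genes, lists and settings were chosen with earlier results of these data known. Named were all 10 genes with every probe set, their flanking and domain genes, and listed genes past 2-fold. Other genes named from the lists were chosen after their values were seen. Alternatives covered centring, normalization, floor, filter, the choice of probe set and the fold.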

Additional observations from a re-analysis of the deposited data

Results flagged for a closer look

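The 4 probe sets that carry Snrpn together with Snurf lay outside the comparison of single-symbol probe sets. After centring, 3 of the 4 had a log2 difference above 0. These were 0.26 (1415895_at), 0.35 (1415896_x_at) and 0.041 (1435716_x_at), all far under 2-fold. The value of 0.041 was smaller than the 0.22 by which probe sets of 1 gene typically disagreed. The fourth such probe set (1421063_s_at) was level at -0.0008 after centring. Its deposited intensities were 5775 in knockout and 5684 in wild-type cells. The probe set assigned to Snrpn alone had a bound of -1.93.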

How the results depend on the processing

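No paired analysis was possible because each genotype had 1 array. Among the 10 alternatives, the count of the described genes past 2-fold stayed between 4 and 6, and no called difference of theirs changed sign. Snrpn, a bound, moved to -2.39 with no floor and to -0.86, short of 2-fold, with a floor at the 40th percentile, because its knockout value lies under the floor. A filter at the 60th percentile left out Snrpn and Sgce and, with fewer genes, moved the median of the genes from 0.23 to 1.13. All 578 genes past 2-fold became 878 without a filter, 1624 at 1.5-fold and 182 at 3-fold. At 1.5-fold the other imprinted genes counted were 10 (7 higher and 3 lower) and the imprint regulators 6, and at 3-fold 1 regulator was left. Of 70 single-gene values under alternatives, 68 moved by less than 0.22 on the log2 scale. Signal near background limits Plagl1, Snrpn and Igf2.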
